A study of Arabidopsis thaliana with 12 samples.

Results

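Transcript levels were compared between whole Arabidopsis thaliana seedlings held for 2 h in 100 µM cycloheximide (CHX) and seedlings held for the same time in 10 µM. The comparison takes the 3 libraries labelled 100 µM and the 3 labelled 10 µM, 6 of 12 libraries in a dose series that also holds 0 and 1 µM, and covers all 12905 genes with deposited counts. All seedlings were Col-0 wild type, 2 weeks old, and grown on plates of 1/2 MS medium with sucrose under 16 h of light and 8 h of darkness. They were kept in water for at least 1 h, moved to 12-well plates and treated under light of 30 µE, so that the handling in water is common to every group. Each library was made by bulk MARS-seq, which counts reads from the 3′ ends of transcripts. The study's methods call the replicates biological and describe each as a pool of whole seedlings. Neither they nor the labels say whether the 3 replicates of a dose were separate cultures, and the p-values therefore measure only the spread between these samples. The labels name CHX doses and were followed, although the text of the study links the record to another experiment, on the flu mutant.

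CHX binds the large subunit of cytosolic ribosomes and halts the movement of the ribosome along the mRNA. Transcripts of fast-responding genes, such as those for stress transcription factors and short-lived repressors, are known to accumulate when translation is blocked, because their decay and their repression both need newly made proteins. At high concentrations CHX blocks nearly all cytosolic protein synthesis, while translation in chloroplasts and mitochondria is not its target.

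The 10 µM libraries held 2823964 to 3724564 counts each, and the 100 µM libraries 1641387 to 2836374. The lowest total belonged to 100 µM replicate 1, and this library also stood apart. On the first principal component of the 6 libraries (56.0% of the variance) the 10 µM libraries lay between −26.0 and −20.7, 100 µM replicate 1 at 7.48, replicate 2 at 27.2 and replicate 3 at 35.0. Summed levels, in CPM (read counts adjusted for library size, with TMM factors), of 14 shoot markers were 12260 to 16440 at 10 µM and 11090 to 12260 at 100 µM. Those of 15 root markers were 214 to 279 and 275 to 304, those of 9 epidermis and guard cell markers 969 to 1054 and 783 to 886, and those of 5 vascular markers 371 to 433 and 424 to 509. None of these 43 markers was called at the threshold given below. Their part in the results was not tested, and in whole seedlings fewer cells of a type cannot be told apart from less RNA per cell.

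At 100 against 10 µM, 282 genes were called higher, 2.19% of those tested, and 320 were called lower, 2.48%. A call required an adjusted p below 0.05 in edgeR's quasi-likelihood test (Benjamini-Hochberg over all genes) and a change of at least 2-fold. The median rise was 1.29 and the median fall −1.57 on the log2 scale. Large changes were more frequent among the falls, with 82 called genes beyond 4-fold against 29 among the rises, and 20 against 3 beyond 8-fold. Of the falls, 19 had 3 or fewer counts over the 100 µM libraries, and 2 of the rises had 3 or fewer over the 10 µM libraries. Folds of such genes are uncertain. AT4G09120 (log2 change −5.99) had 27 and 0 counts, at least 5.37-fold lower with 3 counts taken as the floor. The genes called higher took 3.32 to 3.92% of all counts at 10 µM and 7.201 to 7.43% at 100 µM, whereas those called lower went from 4.41 to 5.56% down to 1.48 to 1.797%. These shares describe genes chosen for their change and are no further test. Libraries of the 2 doses did not overlap for 3373 genes, 26.1% of those tested, and for 587 of the 602 called genes.

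The balance of rises and falls differed between scalings. Under TMM the median change of all genes was 0.01 and 46.8% of calls were rises. Scaling by total counts moved the median to −0.18 and the calls to 142 higher and 498 lower, and scaling to 10 listed reference genes moved it to 0.52 and the calls to 1497 higher and 126 lower. The reference genes themselves had a median change of −0.53 under TMM, and none was called. All directions below are relative to the median gene, and losses of calls under these scalings are given for some of the genes described.

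**Figure D1:**
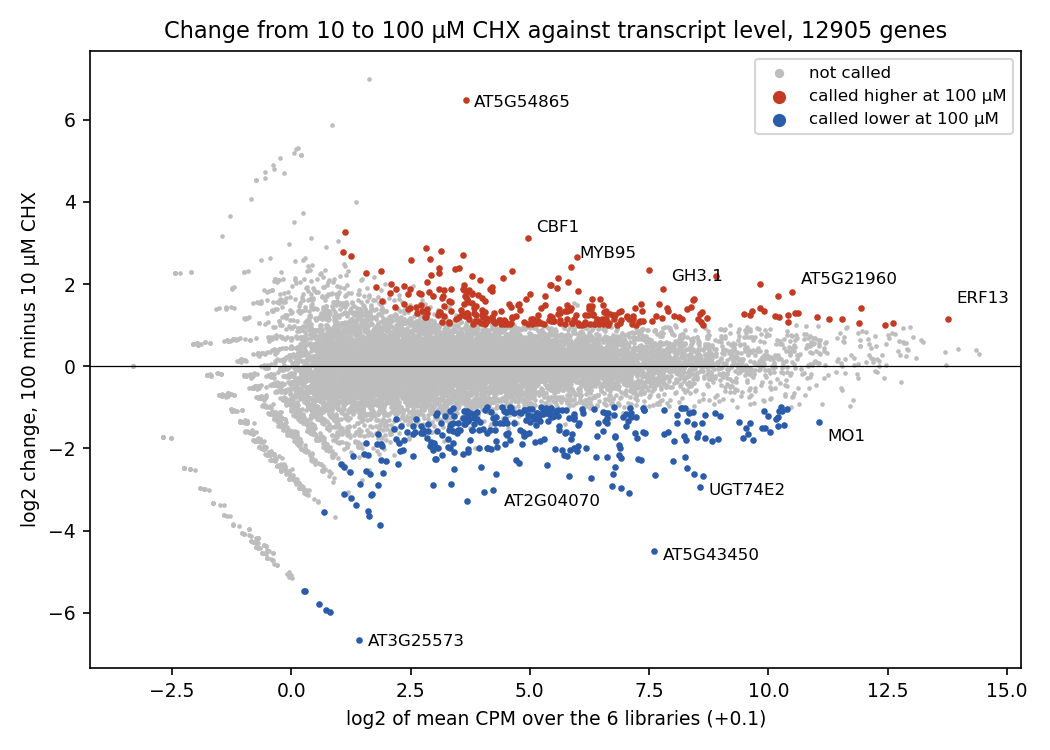
Log2 change from 10 to 100 µM CHX (vertical axis) against the log2 of the mean CPM over the 6 libraries plus 0.1 (horizontal axis), 1 point per gene, with 282 genes called higher in red and 320 called lower in blue. Beyond 4-fold, 82 called genes lie below 0, among them UGT74E2 and AT2G04070, and 29 lie above it, and ERF13 is the most abundant of the labelled rises.

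The AP2/ERF transcription factors of stress and hormone responses formed the group with the most rises among the 79 lists examined. The lists and their members were chosen with earlier results of these data known, so the shares are a description and no test. Of 29 measured members, 16 rose (55.2%, against 2.19% of all genes), none fell, and the median change was 1.06 against 0.01 for all genes. Summed over the list, the libraries held 40430, 34980 and 37940 CPM at 10 µM and 72170, 79370 and 80190 CPM at 100 µM. All 3 libraries at 100 µM lay above all 3 at 10 µM. The number of members called higher was 14 to 17 when any 1 of the 6 libraries was left out, 13 with total counts and 21 with scaling to reference genes. ERF9 was called lower with total counts and without 10 µM replicate 1.

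The largest rise in the family was that of CBF1 (AT4G25490), the activator of cold-responsive genes that binds the C-repeat element. Its level was 6.30, 7.59 and 4.86 CPM in the 10 µM libraries and 61.9, 52.9 and 52.05 CPM in the 100 µM libraries (log2 change 3.12 ± 0.27 SE, adjusted p = 9.06e-07). It was close to absent at the lower doses, with 0.318, 0 and 0 CPM at 0 µM and 0 CPM in each library at 1 µM. Its tandem neighbour CBF2 (AT4G25470) stood at 23.2, 28.7 and 34.9 CPM at 10 µM and at 77.8, 72.5 and 94.2 CPM at 100 µM (1.4999 ± 0.26, adjusted p = 0.000686). CBF4 (AT5G51990), a drought-responsive relative outside the list, rose from 3.32, 1.98 and 4.42 to 19.1, 20.2 and 23.4 CPM (2.70 ± 0.39, adjusted p = 0.000278). DDF1 (AT1G12610), a further relative that lowers gibberellin content when overexpressed, rose by 1.24 ± 0.23. The libraries of the 2 doses did not overlap in any of these 4 genes. Reads of the near-identical CBF1 and CBF2 may be divided between them, so their separate values are uncertain.

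Several AP2/ERF genes were already abundant at 10 µM and rose further. ERF13 (AT2G44840) stood at 9911, 7583 and 8507 CPM at 10 µM and at 17670, 19030 and 20730 CPM at 100 µM (1.143 ± 0.21, adjusted p = 0.00129). ERF104 (AT5G61600), a substrate of the immune kinase MPK6, stood at 2448, 1732 and 2241 CPM and at 4885, 5751 and 6573 CPM (1.42 ± 0.19, adjusted p = 3.98e-05). AT5G21960 (ERF014) stood at 713.7, 543.8 and 689.8 CPM and at 2047, 2298 and 2423 CPM (1.7975 ± 0.17, adjusted p = 9.06e-07). Every library at 100 µM exceeded every library at 10 µM in these genes. The call on ERF13 was lost with total counts, as were those on ERF6 (1.06 ± 0.18) and ERF2 (1.06 ± 0.17), 2 factors of the jasmonate and ethylene responses. The calls on ERF6 and ERF2 were also lost without 100 µM replicate 2 and in a model of the 6 libraries alone, and that on ERF6 without 10 µM replicate 3 (log2 changes of 0.98 to 1.00 in these fits).

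AT1G33760 (ERF022) rose by 2.00 ± 0.22 and AT1G19210 (ERF017) by 1.64 ± 0.21. ORA47, which switches on genes of jasmonate production, rose from 631.8, 378.0 and 654.5 CPM to 2027, 1555 and 1852 CPM (1.71 ± 0.23). RRTF1 (ERF109), a redox-responsive factor of wounding and root regeneration, rose by 1.23 ± 0.19, and the repressors ERF11 and ERF8 by 1.24 ± 0.18 and 1.20 ± 0.19. ERF5 rose by 1.20 ± 0.19. ORA59 (AT1G06160), which integrates jasmonate and ethylene signals, had a different history over the doses. It stood at 52.8, 62.1 and 71.6 CPM at 0 µM and at 36.1, 45.9 and 42.8 CPM at 10 µM, and rose to 129, 119 and 97.7 CPM at 100 µM (1.47 ± 0.18, adjusted p = 2.26e-05). The step from 10 to 100 µM exceeded that from 0 to 1 µM by 1.60 on the log2 scale (adjusted p = 7.15e-05 in edgeR). ORA47, RRTF1 and AT1G19210 overlap other annotated genes, and whether the counting used strand is not given in the sources used here.

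Of the other 13 members of the list, ERF1 (ERF1B) and ERF-1 (ERF1A) had changes of 1.00 ± 0.18 and 0.95 ± 0.19 with adjusted p of 0.00117 and 0.00227, just short of 2-fold. ERF4 had 0.86 ± 0.20 and AT5G51190 (ERF105) 0.77 ± 0.16. TDR1 (ERF098) had −0.76 ± 0.19 with an adjusted p of 0.0149, and its libraries at 100 µM (844, 810 and 711 CPM) all lay below those at 10 µM (1116, 1378 and 1521 CPM). DREB2A, a dehydration factor present at 7.07 CPM or less in every library, had −1.47 ± 0.79 (adjusted p = 0.295), and −3.93 without 100 µM replicate 1, where it was called lower.

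**Figure D2:**
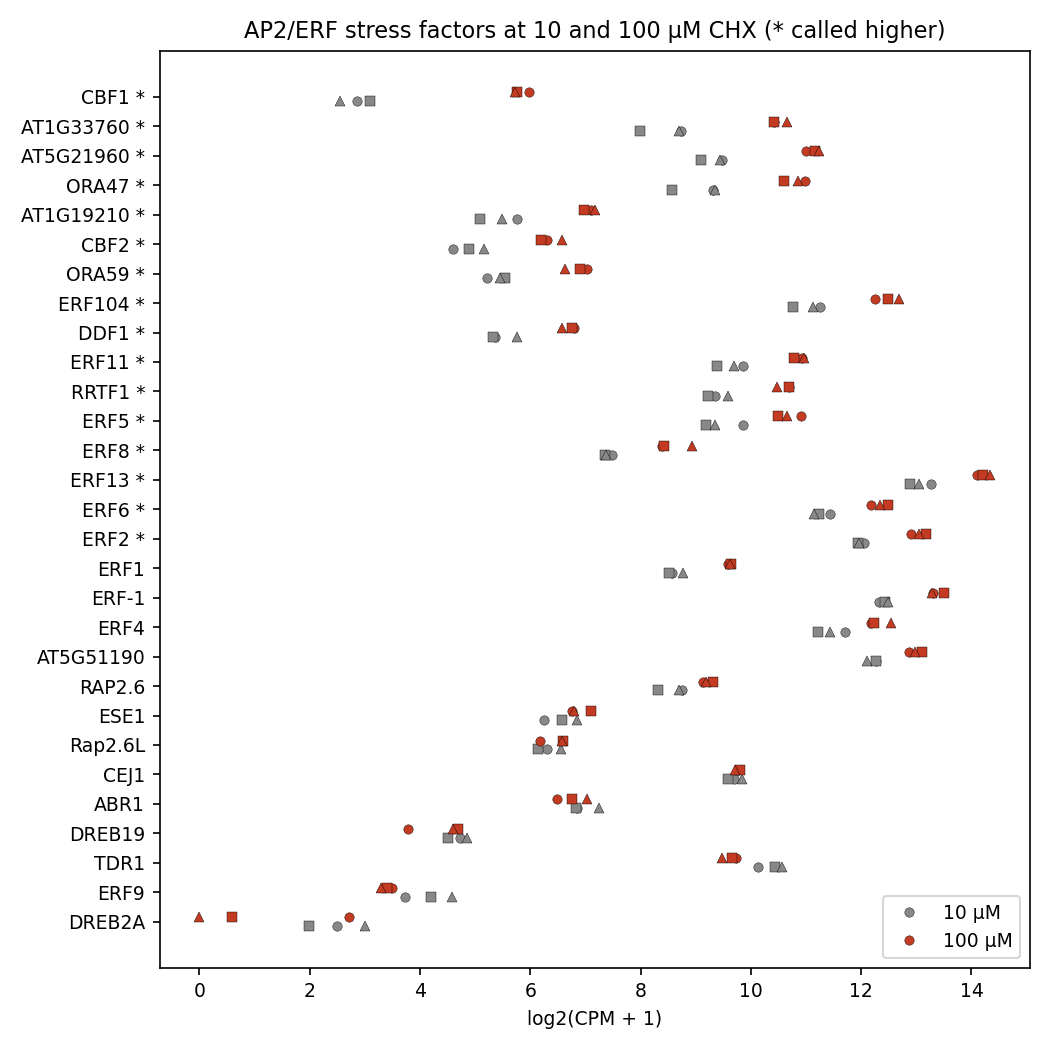
Level of each of the 29 measured AP2/ERF stress factors as log2(CPM + 1) in the 3 libraries at 10 µM (grey) and the 3 at 100 µM (red), ordered by log2 change, with circles, squares and triangles for replicates 1, 2 and 3 and an asterisk for the 16 genes called higher. The red points lie to the right of the grey ones over most of the range of abundance, from CBF1 to ERF13.

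AP2/ERF genes outside that list went both ways. CBF4 rose, as described above, whereas RAP2.9 and the hypoxia gene ERF71, described below, fell. RAP2.9 (AT4G06746) stood at 100.8, 167 and 136.5 CPM at 10 µM and at 11.9, 27.2 and 20.5 CPM at 100 µM (−2.72 ± 0.29, adjusted p = 3.46e-06). At 0 µM it had stood at 100.1, 133 and 203.5 CPM, so the 100 µM libraries were below those of untreated seedlings as well.

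Rises outside the AP2/ERF family included other transcription factors. MYB95 (AT1G74430) stood at 20.6, 14.2 and 19.9 CPM at 10 µM and at 96.1, 92.2 and 104.7 CPM at 100 µM (2.42 ± 0.22, adjusted p = 6.45e-07). It was the largest rise among the MYB factors, of which 5 of 41 rose and 1 fell, with a median change of 0.56, beside 2.19% higher and 2.48% lower among all genes. Leaving out 1 library gave 3 to 9 rises in this list. MYB21 (AT3G27810), a factor of stamen development that responds to jasmonate, rose from 9.61, 5.28 and 9.72 CPM to 34.1, 43.3 and 45.0 CPM (2.33 ± 0.31). Both genes overlap other annotated loci. The uncharacterized genes AT1G76210 (DUF241) and AT5G62280 (DUF1442) rose by 2.66 ± 0.27 and 2.33 ± 0.32, and in both every library at 100 µM exceeded every library at 10 µM. Among MYB factors the calls on MYB6 and MYB34 (1.05 ± 0.20 and 1.15) were lost when single libraries were left out and with total counts.

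Auxin-related genes had rises in several lists. GH3.1 (AT2G14960), of the family that conjugates auxin to amino acids, stood at 82.9, 92.4 and 110.0 CPM at 10 µM and at 374, 235 and 437.5 CPM at 100 µM (1.88 ± 0.23, adjusted p = 1.6e-05). WES1 (GH3.5) rose by 1.51 ± 0.38 (adjusted p = 0.0146), a call that was lost without 10 µM replicate 2 or 3 or 100 µM replicate 3. These were the only 2 of 7 GH3 genes called, and the median of the list was −0.11. Among 16 Aux/IAA genes, which encode short-lived repressors of the auxin response, 4 rose and 1 fell, with a median of 0.30, beside 2.19% higher among all genes. Leaving out 1 library gave 1 to 3 rises in this list, and the calls on IAA14 and IAA20 were each lost when any 1 of 4 libraries was left out. IAA19 (AT3G15540) went from 130.3, 129.7 and 139.1 CPM to 295, 279 and 329.9 CPM (1.18 ± 0.17, adjusted p = 0.000101). With total counts its call was lost, and no Aux/IAA gene was called higher. Of 20 SAUR genes, small auxin-induced proteins, 4 rose and 2 fell, with a median of 0.62. Among all genes 2.19% were higher and 2.48% lower. The calls on the rise AT2G35290 and the fall SAUR21 were lost without 10 µM replicate 2. That on the rise AT5G20820 was lost without 100 µM replicate 2. The SAUR-like gene AT3G12830 rose by 1.90 ± 0.22 to 75.4, 68.0 and 81.3 CPM from 17.9, 16.5 and 26.1 CPM.

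Genes for abscisic acid turnover rose on both sides of the pathway. NCED3 (AT3G14440), the rate-limiting step of synthesis, went from 37.8, 30.7 and 51.2 CPM to 111, 93.7 and 127 CPM (1.48 ± 0.23, adjusted p = 0.000242). The catabolic enzymes CYP707A3 and CYP707A1 rose by 1.39 ± 0.24 and 1.24 ± 0.23. The phosphatase gene HAI1, a negative regulator of abscisic acid signalling, rose by 1.22 ± 0.28, and this call was lost without 100 µM replicate 3. In all, 5 of 20 listed abscisic acid and dehydration genes rose and none fell, beside 2.19% higher among all genes, while the median of the list was 0.06. Among 32 PUB and ATL ubiquitin ligase genes 4 rose, all of the U-box type (PUB18, PUB19, PUB25 and PUB26). This is 12.5%, beside 2.19% higher among all genes. PUB24 alone fell, 3.1% of the list and near the 2.48% lower among all genes. The calls on PUB18 and PUB19, at 1.04 and 1.1428 on the log2 scale, were lost with total counts and without 10 µM replicate 2. PUB24 (AT3G11840), a negative regulator of immune signalling, stood at 120.0, 103.0 and 80.8 CPM at 10 µM and at 46.05, 17.63 and 11.7 CPM at 100 µM (−2.08 ± 0.32, and −2.78 without 100 µM replicate 1).

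The G-box CACGTG, a core bound by bHLH and bZIP factors, was found in the 500 bases upstream of 19.9% of genes called higher, 11.6% of those called lower and 10.5% of all 12830 genes with a window. The motif reads the same on both strands and overlaps the ABRE core ACGTGT, whose shares were 23.5%, 17.2% and 17.7%. In the same order the CGCGTT element was found in 9.96%, 6.25% and 5.23%. The DRE core CCGAC (20.3%, 22.8% and 22.9%) and the GCC-box GCCGCC (3.56%, 6.88% and 4.32%) are both bound by AP2/ERF factors. The site II element TGGGCC was found in 12.1%, 13.8% and 19.8%, and the evening element AATATCT in 23.8%, 17.2% and 18.6%. A match is a description of the letters and not a binding site. To show the letters of the G-box, upstream windows of 4 genes called higher are printed from RefSeq (TAIR10.1). They read 5′ to 3′ on the strand of the gene, with the G-box in capitals. They are from CBF4 (chr5:21117945-21117990, minus strand, motif start 110 bases before the gene start), IAA19 (chr3:5263911-5263956, plus strand, 70 bases), ERF2 (chr5:19172970-19173015, minus strand, 39 bases) and AT5G64870 (chr5:25931725-25931770, minus strand, 366 bases).
CBF4: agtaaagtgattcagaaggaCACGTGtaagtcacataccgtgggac
IAA19: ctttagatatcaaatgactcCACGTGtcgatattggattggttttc
ERF2: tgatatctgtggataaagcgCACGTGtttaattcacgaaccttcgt
AT5G64870: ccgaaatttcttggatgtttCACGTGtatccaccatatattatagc

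Genes for detoxification and export of small molecules were among those that fell. These enzymes oxidize foreign compounds (cytochromes P450), attach sugar or glutathione to them (UGT glycosyltransferases, glutathione transferases) and move them out of the cytosol (ABC and MATE transporters). Of 50 UGT genes 11 fell and 1 rose, with a median of −0.17. Of 24 glutathione transferase genes 4 fell and 1 rose, with a median of −0.69. The counts were 10 lower and 3 higher of 107 cytochrome P450 genes (median −0.26), 5 and 0 of 62 ABC transporter genes (−0.29), and 3 and 1 of 31 MATE transporter genes (−0.07), beside 2.48% lower and 2.19% higher among all genes. Most members of each list were thus not called. Summed levels fell without overlap of libraries for UGT, cytochrome P450 and ABC transporter genes, but not for the other lists. For MATE genes they were 9192, 7527 and 9096 CPM at 10 µM and 12010, 13980 and 14250 CPM at 100 µM. For glutathione transferase genes they were 11040, 9163 and 9722 CPM at 10 µM and 11350, 10880 and 11470 CPM at 100 µM. Leaving out 1 library gave 7 to 11 falls among the UGT genes, 4 to 7 among the glutathione transferase genes, 6 to 10 among the cytochrome P450 genes and 3 to 7 among the ABC transporter genes.

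The glycosyltransferase gene AT2G36770 also fell but is outside the UGT list counted above. It stood at 189, 317 and 222 CPM at 10 µM and at 27.8, 27.7 and 30.4 CPM at 100 µM (−3.08 ± 0.22, adjusted p = 3.1e-08). UGT74E2 (AT1G05680), which acts on the auxin precursor indole-butyric acid, stood at 548.9, 808.5 and 661 CPM and at 178, 49.9 and 42.7 CPM (−2.93 ± 0.36, adjusted p = 1.93e-05). Replicate 1 at 100 µM was well above the other two and still below every 10 µM library, and without it the change was −3.86. UGT87A2 and UGT71C2 fell by 1.71 ± 0.29 and 1.56 ± 0.27. AT2G36770 belongs to a tandem cluster of closely similar UGT73C genes, so reads may be divided among its members. The calls on UGT73B4 and UGT74D1 were lost with DESeq2, with scaling to reference genes and without single libraries. Those on UGT78D1, UGT73C6 and UGT88A1 were lost with scaling to reference genes and without single libraries, as was that on UGT72B3, the only UGT gene called higher, without single libraries and with total counts.

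Among exporters, the MATE gene AT2G04070 stood at 189.3, 264.1 and 182.4 CPM at 10 µM and at 25.4, 24.2 and 32.2 CPM at 100 µM (−2.96 ± 0.21, adjusted p = 3.1e-08). Its neighbours DTX1 (AT2G04040), a toxin efflux carrier, and AT2G04050 fell by 2.29 ± 0.19 and 1.63 ± 0.18. AT2G04050 was at 445.5, 596 and 620.1 CPM and at 158, 176 and 200.6 CPM. The 3 genes lie in 1 tandem array and are similar in sequence, so their separate values are uncertain. ABCB11 (AT1G02520), an ABC transporter of the P-glycoprotein type, stood at 360.0, 293 and 369 CPM and at 46.9, 51.4 and 64.9 CPM (−2.64 ± 0.25, adjusted p = 9.06e-07). In each of these 4 genes the libraries of the 2 doses did not overlap. The calls on ABCG24 and ABCA7 were lost without single libraries and with scaling to reference genes.

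Among oxidases, AT1G26380 (FOX1), a berberine-type oxidase of indole carbonyl nitrile synthesis, went from 537, 654 and 595.8 CPM to 69.9, 84.6 and 133 CPM (−2.63 ± 0.32, adjusted p = 1.91e-05). CYP84A4 (AT5G04330), a cytochrome P450 of arabidopyrone synthesis, went from 445.5, 562 and 491.5 CPM to 75.4, 113 and 132 CPM (−2.22 ± 0.22). CYP71B7 fell by 2.08 ± 0.37. sks8 (AT1G21850), a relative of multicopper oxidases, went from 185, 203 and 171 CPM to 21.4, 26.2 and 25.7 CPM (−2.92 ± 0.24, adjusted p = 1.6e-07). All 100 µM libraries lay below all 10 µM libraries in these genes. The glutathione transferase GSTU9 fell by 1.56 ± 0.34, a call lost with scaling to reference genes, whereas ATGSTF13 rose by 1.25 ± 0.22.

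Genes induced by mitochondrial dysfunction were lower as a group at 100 than at 10 µM. In this retrograde response, damaged mitochondria signal to the nucleus. Of 11 measured members 4 fell (UGT74E2, CYP81D8, AT5G09570 and AT2G21640) and none rose, beside 2.48% lower and 2.19% higher among all genes. The median was −1.45 and no member had a positive change. Summed levels were 7230, 6929 and 8328 CPM at 10 µM and 4025, 3618 and 4570 CPM at 100 µM, without overlap. At the lower doses they were 111.9, 89.0 and 128.3 CPM (0 µM) and 5465, 5560 and 6951 CPM (1 µM). The list at 100 µM thus stayed far above its 0 µM level, and 9 members were called higher at 1 than at 0 µM. The number called lower at 100 than at 10 µM was 3 to 6 when any 1 library was left out. It was 3 with scaling to reference genes.

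CYP81D8 (AT4G37370), a widely stress-induced cytochrome P450, was at 1968, 1664 and 2014 CPM at 10 µM and at 809, 506 and 789.6 CPM at 100 µM (−1.42 ± 0.19, adjusted p = 5.19e-05). AT5G09570 (AT12CYS-2), a small mitochondrial protein, was at 16.6, 22.8 and 19.9 CPM and at 3.97, 3.53 and 5.85 CPM (−2.14 ± 0.38, adjusted p = 0.000777). AT2G21640 (UPOX) had 32 counts over the 10 µM libraries and 3 over the 100 µM libraries, a ratio of 6.36 with an exact 95% counting interval of 1.99 to 32.5, and its call was lost without replicate 2 or 3 of either dose. AOX1A (AT3G22370), the alternative oxidase by which electrons bypass the cytochrome path, was at 2637, 2660 and 3404 CPM at 10 µM and at 1481, 1319 and 1816 CPM at 100 µM. Its change of −0.91 ± 0.20 (adjusted p = 0.0048) fell just short of 2-fold although the libraries did not overlap. BCS1 (OM66), an outer membrane ATPase, had −0.16 ± 0.18 with an adjusted p of 0.662. NAC13, a transcription factor of this response, had −1.29 ± 0.55 with 18.9, 13.5 and 15.5 CPM at 10 µM and 19.1, 2.02 and 1.17 CPM at 100 µM, and was called lower at −3.26 without 100 µM replicate 1. The mitochondrial chaperone gene mtHsc70-1 (AT4G37910), outside the list, fell by 1.08 ± 0.17, and MO1 (AT4G15760), a monooxygenase gene, by 1.36 ± 0.20. Calls on CYP81D8, mtHsc70-1 and MO1 were lost with scaling to reference genes, and that on mtHsc70-1 also without 10 µM replicate 2, where its change was −0.9965.

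The mitochondrial dysfunction motif is an inverted repeat bound by membrane-tethered NAC factors. It was searched on both strands as CTTG, 5 bases of any kind and then CAAG or CACG, and the choice to search it was made after the falls were known. Either form was found upstream of 7.81% of genes called lower, 2.49% of those called higher and 1.89% of all genes. The share was 11.6% among the 198 genes that were lower at 100 than at 10 µM and also higher at 1 than at 0 µM, and 3.48% among 1550 other genes higher at 1 µM. The core TTGACT of the W-box, bound by WRKY factors, was found in 46.6% of genes called lower, 26.3% of those called higher and 32.7% of all genes. Its share was 52.5% among the same 198 genes and 43.8% among the 1550 others higher at 1 µM. To show the letters of the motif, windows of 5 genes called lower are printed from RefSeq (TAIR10.1). They read 5′ to 3′ on the strand of the gene, with each match in capitals. They lie at chr1:523429-523481 (ABCB11, plus strand, motif start 87 bases before the gene start), chr2:1339592-1339644 (AT2G04050, minus strand, 156 bases), chr5:22383448-22383500 (AT5G55150, minus strand, 88 bases), chr4:17571851-17571903 (CYP81D8, minus strand, 140 bases) and chr4:17828292-17828344 (mtHsc70-1, minus strand, 132 bases).
ABCB11: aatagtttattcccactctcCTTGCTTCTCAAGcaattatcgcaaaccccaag
AT2G04050: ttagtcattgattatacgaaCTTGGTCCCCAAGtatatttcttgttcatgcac
AT5G55150: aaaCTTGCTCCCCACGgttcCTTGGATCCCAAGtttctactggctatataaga
CYP81D8: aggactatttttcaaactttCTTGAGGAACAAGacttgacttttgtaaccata
mtHsc70-1: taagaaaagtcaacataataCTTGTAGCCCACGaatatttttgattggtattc

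The window of AT5G55150, an F-box gene with a DUF295 domain, holds both forms of the motif 4 bases apart. This gene was at 574.5, 849.8 and 696.9 CPM at 10 µM and at 194, 217 and 191 CPM at 100 µM (−1.82 ± 0.21, adjusted p = 8.59e-06). Another F-box gene, AT4G22030, fell by 1.62 ± 0.27. Among 56 F-box genes 3 fell (5.36%) and 6 rose (10.7%), beside 2.48% lower and 2.19% higher among all genes. Leaving out 1 library gave 2 to 5 rises in this list. The calls on the rises FBS1, AT3G58940 and SLY2 were lost with total counts, with upper-quartile scaling and without single libraries.

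Hypoxia genes, the core set by which plants switch to fermentation when oxygen is short, were also lower at 100 than at 10 µM. Of 11 measured, 5 fell and none rose, beside 2.48% lower and 2.19% higher among all genes, with a median of −1.18. Leaving out any 1 library gave 2 to 6 members called lower, and scaling to reference genes left 1 lower and 1 higher. LBD41 (AT3G02550), a transcriptional regulator, was at 467, 410.4 and 397 CPM at 10 µM and at 123.1, 65.0 and 71.9 CPM at 100 µM (−2.31 ± 0.30, adjusted p = 3.16e-05). ERF71 (HRE2), a hypoxia-responsive AP2/ERF factor, was at 384, 391 and 360.4 CPM and at 186, 145 and 171 CPM (−1.18 ± 0.18, adjusted p = 0.000167). HB1, the non-symbiotic haemoglobin that scavenges nitric oxide, fell by 1.37 ± 0.33. The groups did not overlap in these genes, and only LBD41 kept its call with scaling to reference genes. The call on HB1 was lost without 100 µM replicate 2 or 3. The fermentation genes ADH1 (−1.59 ± 0.46, adjusted p = 0.0329) and AT4G33070 (PDC1, −1.66 ± 0.46, adjusted p = 0.0287) were called as well. Both calls were lost without 10 µM replicate 1, the highest library for both genes, and ADH1 then had −0.85. Both were also lost without 100 µM replicate 2 or 3, and that on AT4G33070 without 10 µM replicate 3. ERF73 (HRE1), by contrast, had 0.73 ± 0.19 with an adjusted p of 0.021 and was the member called higher with scaling to reference genes, at 1.22.

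Further falls were found in several lists. The legume lectin genes AT3G15356 and AT3G16530 fell by 3.07 ± 0.34 and 3.02 ± 0.38, the former from 22.5, 35.7 and 29.2 CPM to 3.97, 4.03 and 2.34 CPM. In indolic defence metabolism 3 of 14 genes fell and 1 rose, with a median of −0.43, beside 2.48% lower and 2.19% higher among all genes. Of the 3 falls, the call on PAD3 was lost with scaling to reference genes, with DESeq2 and when any 1 of 4 libraries was left out, and that on MYB122 with scaling to reference genes and with thinning. CYP81F2 (AT5G57220), which modifies indole glucosinolates for antifungal defence, stood at 126, 90.8 and 126 CPM at 10 µM and at 58.0, 16.1 and 16.4 CPM at 100 µM (−1.99 ± 0.33, adjusted p = 0.000488). GGP1 (AT4G30530), a peptidase that processes glutathione conjugates in glucosinolate and camalexin synthesis, fell by 2.67 ± 0.35. In both genes 100 µM replicate 1 was the highest of its group and below the 10 µM libraries, and without it the changes were −2.81 and −3.49. In phenylpropanoid synthesis, HCT and CYP98A3 fell by 1.42 ± 0.24 and 1.54 ± 0.34, and 13 of 15 genes were not called, with a list median of −0.51. These enzymes act in consecutive steps towards lignin, and both transcripts were already below their 0 µM level at 10 µM. HCT was at 199.6, 238 and 316 CPM at 0 µM, at 40.1, 59.4 and 53.0 CPM at 10 µM and at 23.03, 18.1 and 16.4 CPM at 100 µM, and its call was lost with scaling to reference genes.

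Most genes that fell from 10 to 100 µM had risen at the start of the dose series. The step from 0 to 1 µM shares no library with that from 10 to 100 µM, and in it 1748 genes were called higher (13.5%) and 403 lower (3.12%). Of the 320 genes called lower at 100 than at 10 µM, 198 (61.9%) were higher at 1 than at 0 µM, 13 were lower and 109 were not called. Of the 282 called higher, 70 (24.8%) were higher and 13 were lower at 1 than at 0 µM. The share of 61.9% was 60.4% with RLE size factors, 49.0% with total counts and 71.4% with scaling to reference genes, and without 100 µM replicate 1 it was 38.9%, 230 of 592 genes. The difference between the 2 steps, tested in the same edgeR model, was called higher for 391 genes (3.03%) and lower for 1563 (12.1%). It was called lower for all of the 198 genes, which were chosen by both of their steps, so that this adds no test.

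ABCB11 moved from 7.31, 4.39 and 8.94 CPM at 0 µM to 580.1, 771 and 1215 CPM at 1 µM before its fall between 10 and 100 µM, and its steps differed by −9.55 on the log2 scale (adjusted p = 1.53e-13). AT2G04070 moved from 1.59, 2.51 and 2.24 CPM to 286.5, 271 and 352 CPM over the same step, and its steps differed by −10.1 (adjusted p = 2.84e-14). For UGT74E2 and sks8 the steps differed by −8.82 and −10.0. The reverse order was rare. MYB95 was lower at 1 than at 0 µM (1.07, 2.67 and 3.50 against 5.08, 4.39 and 5.37 CPM) and then rose, with a difference between the steps of 3.47 (adjusted p = 3.15e-06). AT1G79210, a proteasome subunit gene that overlaps AT1G79200, was at 1.91, 3.14 and 1.34 CPM at 0 µM, at 0.712, 0.333 and 0.389 CPM at 1 µM and at 15.9, 21.2 and 20.5 CPM at 100 µM (difference 4.35, adjusted p = 0.000286). In all, 13 genes were lower in the first step and higher in the second.

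The levels of the 2 sets of called genes over the 4 doses are a description, since the sets were chosen by their change from 10 to 100 µM. The median of the mean CPM was 5.23, 7.54, 17.9 and 47.3 at 0, 1, 10 and 100 µM for the genes called higher, and 11.5, 37.3, 41.8 and 15.5 for those called lower. Of the 282 rises, 264 had their highest mean at 100 µM and 185 their lowest at 0 µM. Of the 320 falls, 146 had their highest mean at 10 µM, 114 at 1 µM and 60 at 0 µM. At 100 µM, 166 of the falls were still above their 0 µM mean, and 149 had their lowest mean there.

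**Figure D3:**
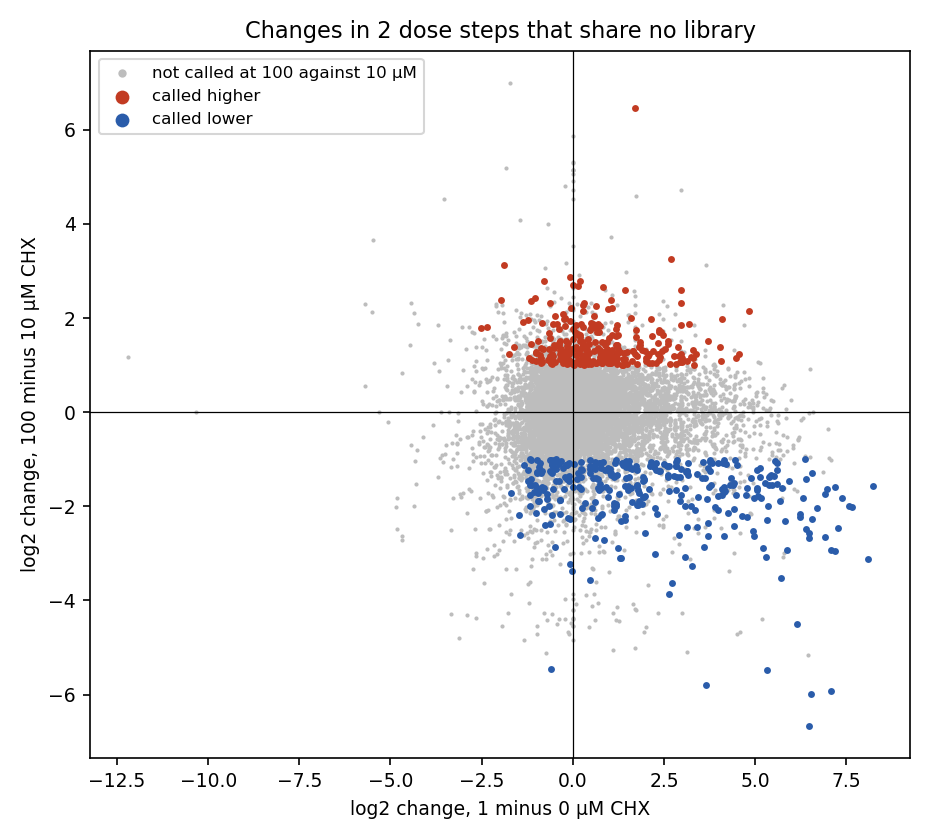
Log2 change from 10 to 100 µM CHX (vertical axis) against log2 change from 0 to 1 µM (horizontal axis), 1 point per gene, with genes called higher at 100 than at 10 µM in red and lower in blue; no library enters both axes. The blue points concentrate in the lower right, where 198 of 320 were called higher in the first step, and the red points spread around 0 on the horizontal axis.

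**Figure D4:**
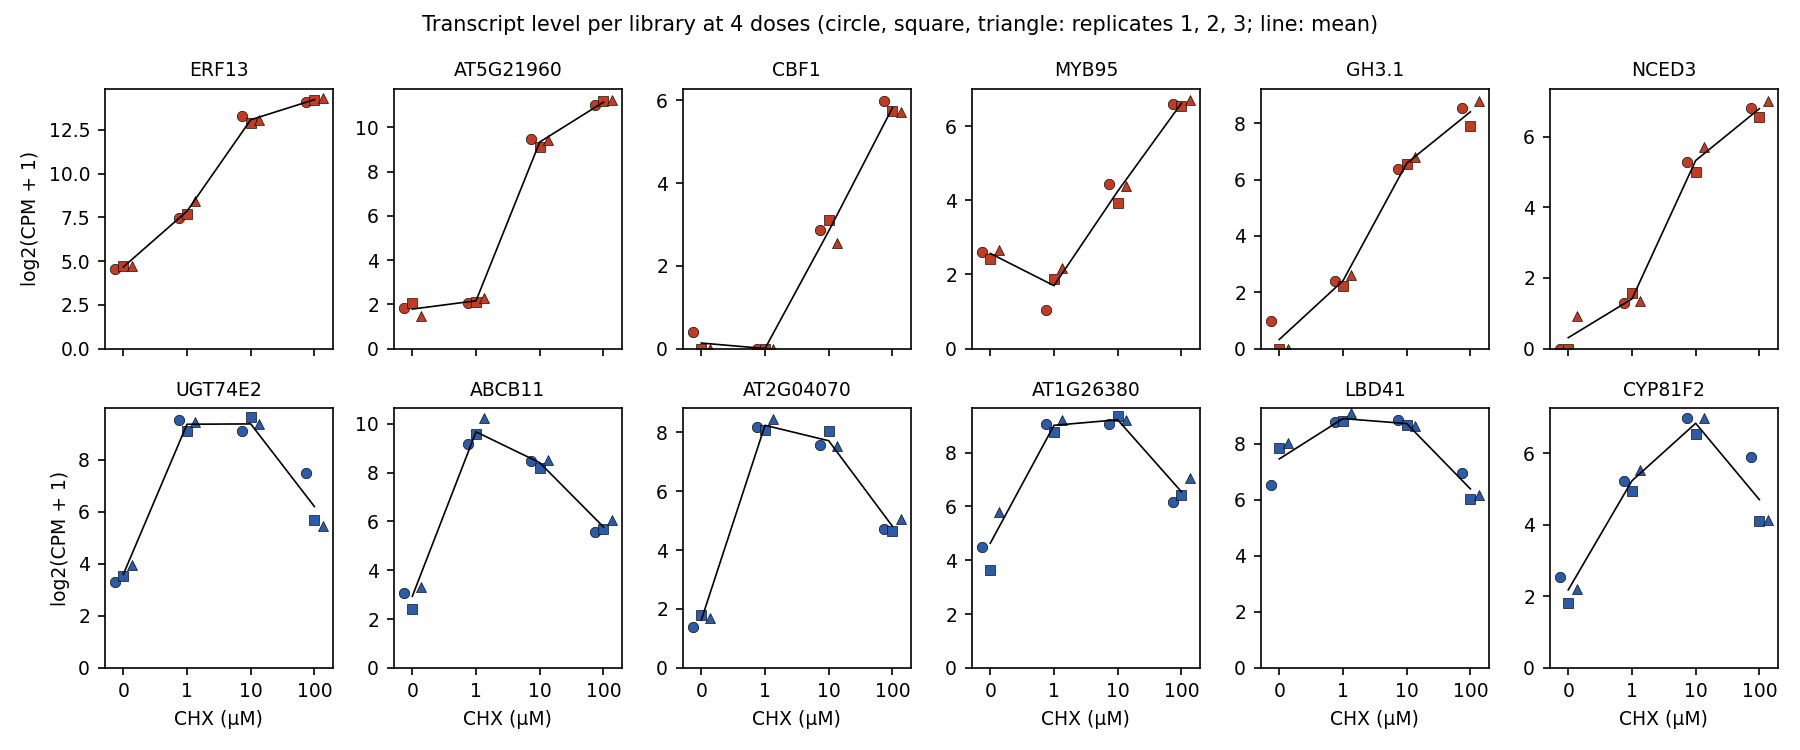
Level as log2(CPM + 1) in each of the 3 libraries at 0, 1, 10 and 100 µM CHX (circle, square and triangle for replicates 1, 2 and 3; line through the means) for 6 genes called higher (upper row, red) and 6 called lower (lower row, blue) at 100 against 10 µM. The upper genes reach their highest levels at 100 µM, whereas UGT74E2, ABCB11 and AT2G04070 peak at 1 or 10 µM, and replicate 1 of 100 µM lies above the other two for UGT74E2, LBD41 and CYP81F2.

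The number of falls depended on 1 library. Without 100 µM replicate 1, 338 genes were called higher and 592 lower, and 313 of the latter had not been called with all libraries. In each of these 313 genes replicate 1 was above both other 100 µM libraries, and it lay within the range of the 10 µM libraries for 157 genes, above it for 81 and below it for 75. Their median level was 19.5 CPM at 10 µM and 20.7, 6.05 and 3.51 CPM in replicates 1, 2 and 3 at 100 µM. Only 42 of them (13.4%) had been called higher at 1 than at 0 µM, against 13.5% of all genes. The 3 genes below were picked from these 313 after their values were seen. WRKY18 stood at 592, 290.2 and 438.5 CPM at 10 µM and at 861.5, 240.3 and 136 CPM at 100 µM, and its change was −0.10 with and −1.23 without the library. ZAT11, a zinc finger factor, stood at 527, 267 and 517 CPM and at 486, 102 and 42.7 CPM, with −1.08 and −2.58. The membrane fusion gene SNAP33 stood at 267.5, 206.0 and 239 CPM and at 252.5, 89.2 and 31.0 CPM, with −0.96 and −1.97. None of the 3 was called with all 6 libraries. Of 36 cytosolic ribosomal protein genes, 6 were called lower without this library and none with it. Whether its low total has a part in this was not tested.

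Several further lists were counted, some of which had many calls in the step from 0 to 1 µM. In that step 13.5% of all genes were called higher. Between 10 and 100 µM, 2.19% of all genes were called higher and 2.48% lower. Of 27 early immune genes, 22 were higher at 1 than at 0 µM, but between 10 and 100 µM PUB24 alone was called, as lower, and the median was 0.14. WRKY factors had 3 rises (WRKY46, WRKY70 and WRKY38) and 1 fall (WRKY25) among 47, with a median of 0.08, beside 26 rises in the first step. The rises made up 6.38% of the list, and the fall, at 2.13%, was near the share of all genes. Leaving out 1 library gave 0 to 3 rises and 0 to 3 falls in this list. The calls on WRKY46 and WRKY38 were also lost with total counts, and that on WRKY25 without 100 µM replicate 2. VQ motif proteins, partners of WRKY factors, had 17 of 22 higher in the first step and 1 lower in the second. None of the listed 57 NB-LRR resistance genes, 15 unfolded protein response genes, 14 heat shock genes and 18 genes of the 26S proteasome was called. The proteasome subunit gene AT1G79210, called higher, and the chaperone gene mtHsc70-1, called lower, are outside these lists. Beside 2.48% lower among all genes, falls made up 3.33% of 30 cysteine-rich receptor-like kinases (1 gene), 9.76% of 41 lectin receptor kinases (4 genes) and 11.8% of 17 Calvin cycle genes (2 genes, list median −0.36). The calls on both Calvin cycle falls, GAPA-2 and CP12-2, were lost with scaling to reference genes and without single libraries. Photosystem and antenna genes had 1 fall among 49 (PSBX, 2.04%, median −0.19). Its call was lost with DESeq2, with scaling to reference genes and without single libraries. Plastid-encoded genes had 1 rise among 55 (1.82%, median 0.47). Both shares were near those of all genes. That plastid rise, ATCG00710, rested on 100 µM replicate 2, and its call was lost without this library, at 1.34 in place of 2.86, and without 10 µM replicate 2. A p that misses the threshold does not show that a group was unchanged.

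**Figure D5:**
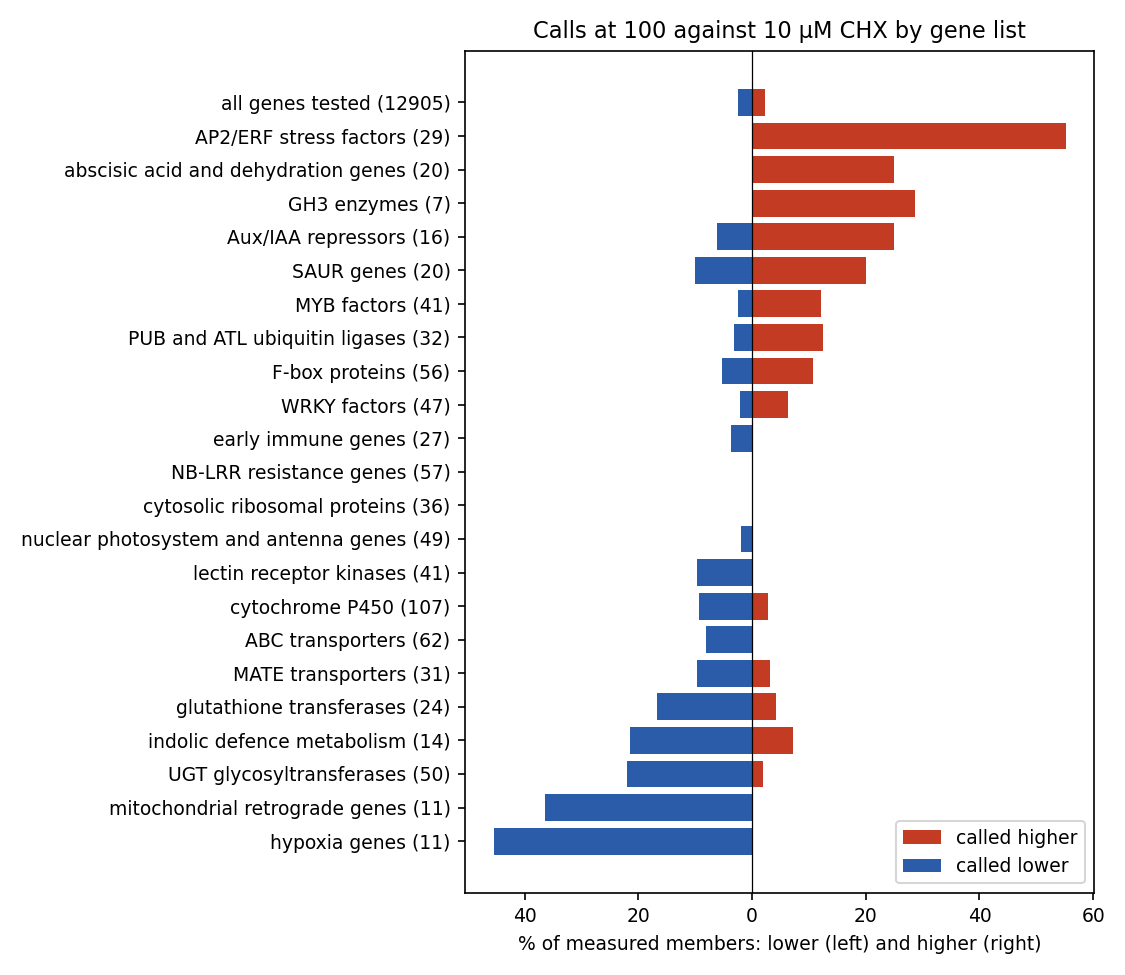
Percent of measured members called higher (red, to the right) and lower (blue, to the left) at 100 against 10 µM CHX for 22 gene lists and for all genes tested, with the number measured in brackets. The AP2/ERF bar reaches 55.2% on the higher side, and the hypoxia and mitochondrial retrograde lists, with 5 and 4 of 11 members, have the longest bars on the lower side.

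Of 4 measured markers that the study used for singlet oxygen, 2 were called higher. AT5G64870, a membrane protein with an SPFH domain, was at 2071, 1505 and 1957 CPM at 10 µM and at 3350.0, 4447 and 4467 CPM at 100 µM (1.15 ± 0.25, adjusted p = 0.00492), and its call was lost with total counts. BAP1, a membrane-associated inhibitor of cell death, had 1.01 ± 0.25 (adjusted p = 0.0136), with a call that was lost under most alternatives, among them RLE size factors and leaving out 100 µM replicate 2 or 3. The others, AT3G01830 and AT5G13200, had −0.39 ± 0.35 (adjusted p = 0.586) and 0.30 ± 0.21 (adjusted p = 0.437). Neither of 2 markers for superoxide was called. The ferritin gene FER1 had 0.68 ± 0.19 (adjusted p = 0.0288), under 2-fold, and was called at 1.20 with scaling to reference genes, and AT4G21870 had −0.13 ± 0.82 (adjusted p = 0.95). The study chose these markers, and they may rest on the same samples.

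Some transcripts were not detectable at 100 µM or rested on 1 library. AT3G25573 had 44 counts over the 3 libraries at 10 µM and 0 at 100 µM, at least 8.74-fold lower when 3 counts over the group are taken as the floor. AOX1B, a second alternative oxidase gene, had 24 and 0 counts, at least 4.77-fold lower. The metacaspase gene MC8 had 56 and 2 counts, a ratio of 16.7 (exact 95% counting interval 4.41 to 141), and the lipase gene GLIP1 had 48 and 2, a ratio of 14.3 (3.75 to 122). These intervals cover counting error only. AT5G43450, an oxygenase gene, was called lower with 1002 CPM in 10 µM replicate 1, against 82.9 and 35.3 CPM in the other two, and without it the change was −1.86 and not called. The call was also lost without any 1 of the 100 µM libraries. The tRNA gene AT5G54865 was called higher through 1 library, with 0, 73.5 and 0.585 CPM at 100 µM, and the groups overlapped. IAA5 had 43.7 CPM in 100 µM replicate 1 and 8.56 and 7.02 CPM in the others, and its call was lost without that library, at 0.71 in place of 1.97, and without 10 µM replicate 2 or 3.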

How the data were processed

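Per the labels, the authors made MARS-seq libraries, called bases with bcl2fastq 2.17.1.14, trimmed with cutadapt 1.8.3, and aligned with STAR. The reads were aligned to Araport11 gene models and counted with HTSeq. The deposited counts are whole reads per gene, with no filter on molecular identifiers, so PCR copies may be included. The authors also deposited a normalized signal, equal to the counts divided by 1 size factor per library, and log2 values of DESeq2. These were not tested. Here counts were fitted with edgeR 4.0.16 (R 4.3.3), TMM scaling and the quasi-likelihood test, in 1 model of all 12 libraries that gave each dose its own mean and had no replicate block. Genes needed 5 reads in 1 library, which removed none. The contrasts were 100 minus 10 µM, 1 minus 0 µM and their difference. Levels are CPM after TMM scaling, and ± is an SE from edgeR. Genes in each direction were named by size of change (15, with a minimum of 10 CPM). Others were named without this minimum, by level, detection, opposite steps and list (3 each). A further 81 genes were named after their values were seen. The members and the 79 lists were chosen with earlier results of these data known. Symbols, products and sequences came from RefSeq (12831 of 12905 matched), with 500 upstream bases searched for 16 motifs, 5 added after results were seen. Replicates differed beyond sampling noise in every pair. Alternatives were other scalings and filters, a replicate block, thinning, DESeq2 1.42.0, other thresholds and leaving out each library. The procedure was tested on simulated data.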

Additional observations from a re-analysis of the deposited data

How the results depend on the processing

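The 282 rises became 142 with total counts and 1497 with scaling to reference genes, 631 with no minimum fold and 614 at 1.5-fold. The 320 falls became 498 and 126 with these scalings, 484 with no minimum fold, 481 at 1.5-fold and 207 at an adjusted p of 0.01. The 1954 genes whose steps differed became 3979 with scaling to reference genes. Leaving out 1 library gave 180 to 338 rises, 226 to 592 falls and 1794 to 2010 differing steps. The 180 rises were found without 10 µM replicate 2 and the 592 falls without 100 µM replicate 1. DESeq2 gave 239 rises and 290 falls, of which 238 and 278 were shared with edgeR. Other filters, RLE and upper-quartile scaling, a model of the 6 libraries and thinning each kept the counts within 1.5 times. The share of rises among calls was 37.5% with upper-quartile scaling.

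The replicate numbers paired the samples weakly at most. Deviations of same-numbered libraries at 10 and 100 µM correlated over genes at 0.17, 0.14 and 0.05. Those of differently numbered libraries correlated at −0.15 to 0.07. With the replicate number as a block, 294 genes were higher and 376 lower in the 12 libraries, 245 and 450 in the 6 libraries, and 2017 differed between steps.

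Of 185 called genes examined singly, none reversed under the alternatives that gave it a value. Calls were lost in 34 with total counts, 45 with scaling to reference genes, 41 with thinning and 14 with DESeq2, and in 16 to 56 without 1 library. Depth limits low genes: 3 counts over the 100 µM libraries are 0.606 CPM, and differences below that level were not detectable.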
